A study of Emberiza melanocephala with 15 samples.

Results

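The first long day was followed in the hypothalamus of photosensitive blackheaded buntings (Emberiza melanocephala) by setting birds collected 14 and 18 h after light onset against birds collected 10 h after it. The comparison took the 4 libraries of hours 14 and 18 against the 2 libraries of hour 10, which were 6 of the 15 libraries of the study. Counts were summed per assembled gene, that is over all assembled transcripts whose identifiers differ only in their last number. Of 317533 assembled genes, 52138 had a summed count of at least 5 in 2 or more of the 6 libraries and were tested, and they held 97.3% to 98.6% of the counts of each of the 6 libraries.

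The 6 birds were wild-caught males that had been kept on short days and were released into light that went on past the end of their usual day. All 6 had this extended light in common, so the birds of hour 10 were not unexposed, and time of day and length of light cannot be told apart between the hours. Each group was of 2 birds, with 1 hypothalamus and 1 library per bird, and no bird was sampled at more than 1 hour. The other birds of the study were 2 photosensitive birds of hour 22 and 7 photorefractory birds, which had been kept on long days and were collected at the same hours, with 2 birds at each hour except 1 at hour 22.

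In birds that breed on long days, light is sensed by photoreceptors deep in the brain, and the response turns on when light falls in a sensitive phase of the daily clock. The pars tuberalis of the pituitary then releases thyrotropin, which raises type 2 deiodinase and lowers type 3 deiodinase in the mediobasal hypothalamus, so that active thyroid hormone is made locally and the reproductive axis follows. A photosensitive bird makes this response on the first long day, whereas a photorefractory bird has stopped answering long days by breeding. Hour 10 mimics a short day in this design and hours 14 and 18 mimic long days.

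The deposited tables give assembly identifiers that are not paired with gene names, and no sequence, genome or annotation was used here. Which of the identifiers are the thyrotropin or deiodinase genes is therefore not stated, the hypothalamic origin of the RNA was not checked against markers, and genes are described by their identifier, their assembled length and their values. Levels are given as CPM, counts relative to the size of the library, scaled with TMM factors, which equalise the bulk of genes between libraries.

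The libraries of hours 14 and 18 held 4809916 to 5728786 estimated counts, against 5628882 and 7318462 in those of hour 10. A group without a single count for a gene could still have had up to 3, which is 0.143 CPM over the 4 later libraries and 0.232 CPM over the 2 of hour 10, for counting error only. Pearson's r of log2(CPM + 1) across the tested genes was 0.857 to 0.954 between pairs of the 6 libraries, and averaged lowest for bird 2 of hour 18 (0.906) and bird 2 of hour 10 (0.911). On the first principal component, which carried 43.7% of the variance, these same birds stood at the opposite ends.

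A single assembled gene was called higher at both later hours. TRINITY_DN88976_c0_g1 had 74.5 and 77.9 CPM in the birds of hour 14, then 48.3 and 92.6 CPM at hour 18, against 1.36 and 2.47 CPM at hour 10. Every bird of hours 14 and 18 was thus far above both birds of hour 10. It was 38.4-fold higher (log2 fold change 5.26, standard error 0.43) with an adjusted p of 0.00393 in edgeR's quasi-likelihood test. Of the 52138 genes tested it was the 1 gene called higher at an adjusted p at or below 0.05 (0.00192%), and 0 were called lower. With no call lower, 5750 genes (11%) still had an unadjusted p under 0.05, of which 2781 (5.33%) were higher and 2969 (5.69%) lower, and DESeq2 called 112 genes higher and 44 lower. Without bird 2 of hour 10 the 5750 were 2866.

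The 2 hours taken singly gave the same gene and no other. At hour 14 TRINITY_DN88976_c0_g1 was 40.05-fold higher than at hour 10 (log2 fold change 5.32, standard error 0.47, adjusted p = 0.0206 in edgeR's quasi-likelihood test). At hour 18 it was 36.7-fold higher than at hour 10 (log2 fold change 5.20, standard error 0.47, adjusted p = 0.0252 in the same test). Hours 14 and 18 share the birds of hour 10, so the second value is no independent repeat of the first. Between hours 18 and 14 its log2 fold change was -0.13 with an unadjusted p of 0.736 in edgeR's test.

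The level of this gene in the birds that the comparison did not use lay between the groups. The photosensitive birds of hour 22 had 5.89 and 20.2 CPM. The photorefractory birds had 23.2 and 3.33 CPM at hour 14, then 5.55 and 27.2 CPM at hour 18, against 26.3 and 6.71 CPM at hour 10, and the bird of hour 22 had 2.59 CPM. The groups of the photorefractory birds overlapped, and in them the log2 fold change of hours 14 and 18 against hour 10 was -0.12 (unadjusted p = 0.872 in edgeR's test). The difference between the 2 states in this change was 5.43 on the log2 scale and was not called (adjusted p = 0.509 in edgeR's test, unadjusted p = 5.33e-05).

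The gene is short in the assembly, with 2 transcripts of 207 and 213 nt, under the mean fragment length of 249 to 257 nt in the 6 libraries. Transcript i1 had 210 and 461 estimated counts at hour 14 and 249 and 236 at hour 18, against 9.95 and 16.0 at hour 10. Transcript i2 had 190 counts in bird 1 of hour 14 and 153 in bird 2 of hour 18, and was at 0 in the other later birds and near 0 in both birds of hour 10. Transcript i1 was thus higher in all 4 later birds than in those of hour 10, and i2 added to the total in 1 bird of each later hour.

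The call was lost without some of the birds. Without bird 1 of hour 10 the adjusted p of TRINITY_DN88976_c0_g1 was 0.0544, and with all 15 libraries in 1 fit it was 0.288, with log2 fold changes of 4.83 and 5.26, and over all 17 alternatives it ranged from 9.43e-31 to 0.288. At hour 14 alone the adjusted p was 0.141 without bird 1 of hour 10, 0.104 without bird 1 of hour 14 and 0.258 without bird 2 of hour 14, at log2 fold changes of 4.89, 5.34 and 5.27, within a range of 3.65e-28 to 0.286 over 16 alternatives. At hour 18 alone it was 0.0938 without bird 1 of hour 10, 0.157 and 0.176 without bird 1 and bird 2 of hour 14, and 0.113 without bird 2 of hour 18, at log2 fold changes of 4.76, 5.18, 5.18 and 4.62, within 4.48e-27 to 0.277 over 16 alternatives.

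In the opposite direction no assembled gene passed the test. Those named here had the smallest p among lower genes without overlap and with a larger group mean of at least 10 CPM. TRINITY_DN97310_c0_g3, of 1470 nt, had 5.96 and 5.92 CPM at hour 14, then 6.98 and 4.05 CPM at hour 18, against 17.9 and 30.5 CPM at hour 10. All 4 later birds were under both birds of hour 10 (log2 fold change -2.09, standard error 0.36), with an adjusted p of 0.423 in edgeR's test. Its photosensitive birds of hour 22, with 5.53 and 4.82 CPM, were at the level of hours 14 and 18, and all 7 photorefractory birds were at 2.70 to 9.17 CPM.

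TRINITY_DN88063_c0_g3, of 576 nt, had 36.2 and 30.8 CPM at hour 14, then 33.3 and 19.99 CPM at hour 18, against 102 and 75.04 CPM at hour 10. The log2 fold change was -1.56 (standard error 0.27) with the same adjusted p of 0.423 in edgeR's test. Here the photosensitive birds of hour 22, with 81.7 and 76.3 CPM, were at the level of hour 10, within its 2 birds. The photorefractory bird of hour 22 had 67.4 CPM and the other photorefractory birds 14.3 to 44.2 CPM. With DESeq2 TRINITY_DN97310_c0_g3 and TRINITY_DN88063_c0_g3 passed (adjusted p = 0.00154 and 0.00181), and over 17 alternatives their highest adjusted p was 0.597.

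**Figure D1:**
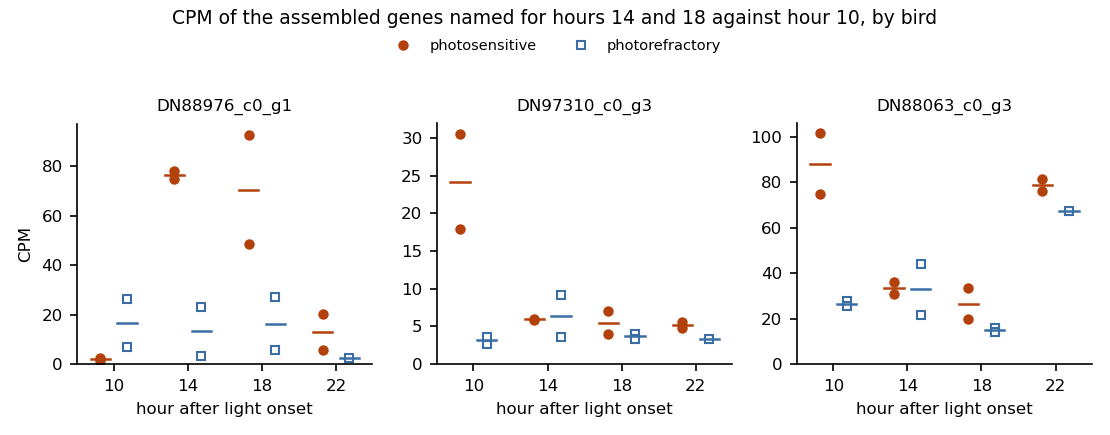
CPM (linear axis from 0) against the hour after light onset in each bird, with photosensitive birds as filled circles, photorefractory birds as open squares and group means as bars, for the called gene TRINITY_DN88976_c0_g1 (left) and the genes named as lower, TRINITY_DN97310_c0_g3 and TRINITY_DN88063_c0_g3, which did not pass the test. In the left panel the 4 photosensitive birds of hours 14 and 18 sit between 48.3 and 92.6 CPM and every other bird at or under 27.2 CPM.

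Hours 14 and 18 were next compared for where they agree, gene by gene, without a threshold on p. At hour 14, both birds were above both birds of hour 10 in 10320 genes (19.8% of those tested) and below them in 10605 (20.3%). At hour 18 the numbers were 10690 (20.5%) above and 12464 (23.9%) below. In 5881 genes (11.3%) the birds of both hours were above hour 10, which was 57.0% of those above at hour 14 and 55.0% of those above at hour 18. In 6533 genes (12.5%) the birds of both hours were below hour 10, being 61.6% of those below at hour 14 and 52.4% of those below at hour 18. The groups thus did not overlap in 12414 genes (23.8%), while in 773 genes one hour was above and the other below. Since both hours are set against the same birds of hour 10, agreement is favoured wherever those birds are extreme, and these counts describe the 6 birds.

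The numbers above and below depended on the scaling. Of the same 52138 genes, without TMM factors 4691 had all 4 later birds above hour 10 and 7693 had them below, and with RLE factors, the scaling of DESeq2, the counts were 5249 and 7188. With every library thinned to the smallest total they were 5812 and 5867. There the minimum was applied anew to the thinned counts, so these are not counts over the same genes. The median log2 fold change of all genes was -0.04 with TMM, -0.05 with RLE and -0.16 without factors.

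Where no gene differs, a share of about 0.05 of the genes has an unadjusted p under 0.05, here and wherever this cut is used. At hour 14 against hour 10, 2699 genes (5.18%) were under it, with 2.66% of all genes higher and 2.52% lower. Without bird 1 of hour 14 that number was 1220, and without bird 2 of hour 14 it was 1586. At hour 18 there were 6541 (12.5%), with 6.09% higher and 6.46% lower. That number was 2848 without bird 2 of hour 18, 11963 without bird 1 of hour 18 and 3868 without bird 2 of hour 10. No gene but TRINITY_DN88976_c0_g1 was called at either hour.

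Of the 52138 genes tested, 2497 in the higher and 2436 in the lower direction had both an unadjusted p under 0.05 and no overlap of the 4 later birds with hour 10. They were chosen on this contrast, so their changes are a description. The higher ones had a median log2 fold change of 1.09, and 1409 of them were at least 2-fold higher. The lower ones had a median of -1.68, and 2102 were at least 2-fold lower, beside a median of -0.04 over all genes tested. Of all 52138 genes, 11876 differed by at least 2-fold in either direction. The higher genes were the more abundant, with a median of 16.5 CPM over the 6 birds, against 2.46 CPM for the lower ones and 2.82 CPM for all genes. Low genes could pass the minimum through the birds of hour 10 alone, and what this adds to the lower set was not tested. Hour 18 was farther from hour 10 than hour 14 in 1895 of the 2497 higher genes (75.9%) and in 1800 of the 2436 lower ones (73.9%), beside 63.6% of all genes tested. Between hours 18 and 14, 129 of the higher (5.17%) and 71 of the lower genes (2.91%) had an unadjusted p under 0.05, beside 3.89% of all genes tested.

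These genes were then read in birds that had no part in choosing them. The median CPM of the 2497 higher genes was 18.8 and 16.7 in the birds of hour 14 and 17.6 and 25.2 in those of hour 18, against 10.0 and 8.33 at hour 10. The photosensitive birds of hour 22 had medians of 8.004 and 7.79 CPM, just under both birds of hour 10. For the 2436 lower genes the medians were 1.49 and 1.69 CPM at hour 14, then 1.55 and 0.714 CPM at hour 18, against 4.07 and 5.09 CPM at hour 10. At hour 22 they were 3.88 and 4.20 CPM, again near hour 10 and apart from the hours between. Over all 52138 genes the medians of the photosensitive birds of hours 10 to 22 were 2.38 to 2.93 CPM. The higher genes were more abundant than that, and genes of like abundance were not set beside them. All genes of 100 CPM or more, given below, also held a smaller share of the counts at hour 22 than at hour 10. The libraries of hours 10 and 22 were on average also the larger ones, those of hour 22 with 8068941 and 9403923 counts, and what the size of the library adds to these medians was not tested.

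**Figure D2:**
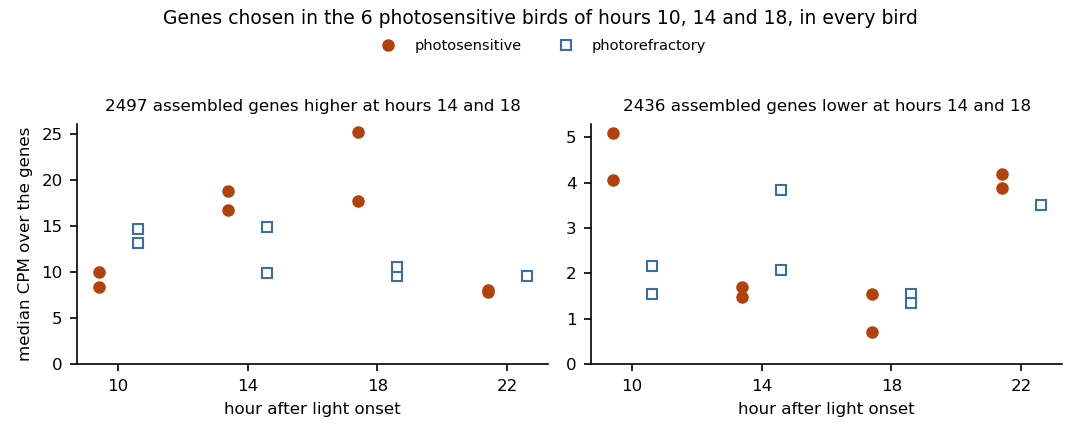
Median CPM (linear axis from 0) of the 2497 genes chosen as higher (left) and the 2436 chosen as lower (right) at hours 14 and 18, against the hour after light onset, with 1 point per bird, filled circles for photosensitive and open squares for photorefractory birds. The photosensitive birds of hour 22, with medians of 8.004 and 7.79 CPM at left and 3.88 and 4.20 CPM at right, lie near those of hour 10 in both panels.

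The same genes were read in photorefractory birds. The medians of the higher genes were 14.9 and 9.83 CPM at hour 14, then 9.56 and 10.5 CPM at hour 18, against 14.7 and 13.2 CPM at hour 10. Those of the lower genes were 2.08 and 3.83 CPM at hour 14, then 1.54 and 1.36 CPM at hour 18. At hour 10 they were 1.55 and 2.16 CPM, under both photosensitive birds of hour 10. The photorefractory bird of hour 22 had medians of 9.52 CPM for the higher and 3.52 CPM for the lower genes. Of the 2293 higher genes that could be tested in the photorefractory birds, 37.5% had a log2 fold change above 0 (median -0.14), beside 51.8% of all 42774 genes tested in both states (median 0.02). Of the 1885 lower genes, 68.2% were above 0 (median 0.26). At an unadjusted p under 0.05 in the photorefractory birds, 0.698% of the higher genes were higher and 2.97% lower, against 1.58% and 1.64% of all genes. Of the lower genes 2.92% were higher there and 0.796% lower. In that state 0 of 45079 genes were called by edgeR's test and 1501 (3.33%) had an unadjusted p under 0.05, 1.68% being higher and 1.65% lower.

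Whether the change differed between the states, which also differed in usual day length, was tested directly over the 12 libraries of hours 10, 14 and 18. Of 57576 genes, 0 were called by edgeR's test (smallest adjusted p 0.484), while 5454 (9.47%) had an unadjusted p under 0.05 (4.64% more positive and 4.84% more negative in photosensitive birds), and DESeq2 called 14 genes as more positive in photosensitive birds and 5 as more negative. The 5454 were 2587 without the photosensitive bird 2 of hour 10 and 2740 without the photorefractory bird 1 of hour 10. The gene with the smallest p, TRINITY_DN98280_c0_g1 of 2288 nt, had 38.4 and 34.8 CPM at hour 14, then 36.8 and 54.3 CPM at hour 18 in photosensitive birds, against 13.8 and 12.6 CPM at hour 10. In photorefractory birds it had 24.1 and 13.7 CPM at hour 14, then 17.0 and 19.7 CPM at hour 18, against 38.8 and 31.1 CPM at hour 10. The changes of the 2 states went in opposite directions without overlap of the birds, and differed by 2.52 on the log2 scale (standard error 0.41), which did not pass (adjusted p = 0.484 in edgeR's test). At hour 22 it was back at 8.83 and 9.63 CPM in photosensitive birds, under both birds of hour 10.

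TRINITY_DN85160_c1_g1, of 555 nt, was similar in shape. Its levels in photosensitive birds were 18.3 and 16.1 CPM at hour 14, then 20.8 and 24.9 CPM at hour 18, against 4.88 and 2.69 CPM at hour 10. In photorefractory birds they were 3.57 and 4.17 CPM at hour 14, then 3.70 and 3.73 CPM at hour 18, against 7.34 and 5.51 CPM at hour 10. The difference between the states was 3.15 (standard error 0.53) with an adjusted p of 0.484 in edgeR's test. The photosensitive birds of hour 22, with 5.06 and 2.25 CPM, were at the level of hour 10.

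In the opposite direction TRINITY_DN99405_c1_g1 was named. Its p was the smallest among genes without overlap in photosensitive birds and with a larger group mean of at least 10 CPM. Its levels in photosensitive birds were 2.98 and 2.37 CPM at hour 14, then 2.91 and 1.43 CPM at hour 18. At hour 10 they were 5.56 and 46.9 CPM. In photorefractory birds it had 15.01 and 11.7 CPM at hour 14, then 6.17 and 29.5 CPM at hour 18, against 10.4 and 1.92 CPM at hour 10. The difference between the states was -4.76 (standard error 1.09, adjusted p = 0.509 in edgeR's test). It was -2.50 without the photosensitive bird 2 of hour 10, which had 46.9 CPM, and -6.49 without the photorefractory bird 1 of hour 10. TRINITY_DN97310_c0_g3, given above, came next with -2.81 (standard error 0.66, adjusted p = 0.509 in the same test). With DESeq2 TRINITY_DN98280_c0_g1 passed with an adjusted p of 0.000447, TRINITY_DN85160_c1_g1 with 0.000688 and TRINITY_DN99405_c1_g1 with 0.0284, and over 22 alternatives the highest was 0.934.

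The 2 later hours were also set against each other, which involves no bird of hour 10. Of the 52138 genes 0 were called by edgeR's test (smallest adjusted p 0.571), 2026 (3.89%) had an unadjusted p under 0.05 (1.62% higher and 2.26% lower at hour 18), and DESeq2 called 9 genes higher at hour 18 and 10 lower. Both birds of hour 18 were above both of hour 14 in 15.7% of the genes and below them in 17.8%, so that 33.5% did not overlap, which describes these 4 birds only. The 2026 were 6380 without bird 1 of hour 18, and 1139 and 1278 without bird 1 and bird 2 of hour 14. TRINITY_DN93567_c0_g4, of 1633 nt, had 40.9 and 48.8 CPM at hour 18, against 2.05 and 4.56 CPM at hour 14, and between 0.235 and 5.02 CPM in all other birds of the study. It was thus high in the photosensitive birds of hour 18 and in no other bird (log2 fold change 3.74, standard error 0.47, adjusted p = 0.571 in edgeR's test). TRINITY_DN86551_c4_g3, of 294 nt, had 32.4 and 42.4 CPM at hour 18, against 1.66 and 2.26 CPM at hour 14 (log2 fold change 4.26, standard error 0.58, adjusted p = 0.606 in edgeR's test). It was as high in both photorefractory birds of hour 10, with 43.3 and 34.2 CPM.

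Lower at hour 18 than at hour 14 was TRINITY_DN98697_c1_g2, with 36.0 and 22.9 CPM at hour 18, against 130 and 113 CPM at hour 14 (log2 fold change -2.05, standard error 0.33, adjusted p = 0.983 in edgeR's test). At hours 10 and 22 the photosensitive birds had 17.0 to 25.001 CPM, so that hour 14 stood alone among them, and in photorefractory birds this gene reached 202 CPM at hour 18. TRINITY_DN90903_c1_g3 had 1.16 and 0.714 CPM at hour 18, against 10.8 and 9.30 CPM at hour 14 (log2 fold change -3.41, standard error 0.58, adjusted p = 0.983 in the same test). DESeq2 gave an adjusted p of 1.12e-08 for TRINITY_DN93567_c0_g4, 4.07e-08 for TRINITY_DN86551_c4_g3, 0.000683 for TRINITY_DN98697_c1_g2 and 0.0239 for TRINITY_DN90903_c1_g3, and over 16 alternatives each reached an adjusted p of 1.

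For the hours taken singly against hour 10, the genes named as lower did not pass either. TRINITY_DN100559_c6_g1 had 4.10 and 5.07 CPM at hour 14, against 16.4 and 23.9 CPM at hour 10 (log2 fold change -2.14, standard error 0.45, adjusted p = 0.898 in edgeR's test). At hour 18 it was at 7.56 and 11.4 CPM, still under both birds of hour 10. At hour 22 it was at 21.7 and 22.1 CPM, within the birds of hour 10. TRINITY_DN96620_c0_g1, of 5220 nt, had 2.05 and 2.03 CPM at hour 14, against 14.1 and 9.41 CPM at hour 10 (log2 fold change at hour 14 -2.53, standard error 0.54, adjusted p = 0.898 in edgeR's test). At hour 18 it had 5.62 and 10.7 CPM, which overlapped hour 10, and at hour 22 it had 12.2 and 9.84 CPM.

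At hour 18, TRINITY_DN97590_c1_g1, with 23 assembled transcripts, had 9.70 and 10.0 CPM, against 38.5 and 48.9 CPM at hour 10 (log2 fold change -2.17, standard error 0.34, adjusted p = 0.361 in edgeR's test). In photosensitive birds of hour 22 it was higher than in any other bird, at 75.8 and 50.4 CPM. TRINITY_DN85167_c0_g2 had 38.2 and 31.9 CPM at hour 18, against 105 and 155 CPM at hour 10 (log2 fold change -1.90, standard error 0.30, adjusted p = 0.361 in the same test), and stayed at 48.0 and 56.2 CPM at hour 22. Its photorefractory birds had 59.5 and 87.9 CPM at hour 18, against 144 and 144 CPM at hour 10, again without overlap. With DESeq2 TRINITY_DN97590_c1_g1 and TRINITY_DN85167_c0_g2 passed (adjusted p = 0.000265 and 0.000171), and over 16 alternatives their highest adjusted p was 0.857.

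**Figure D3:**
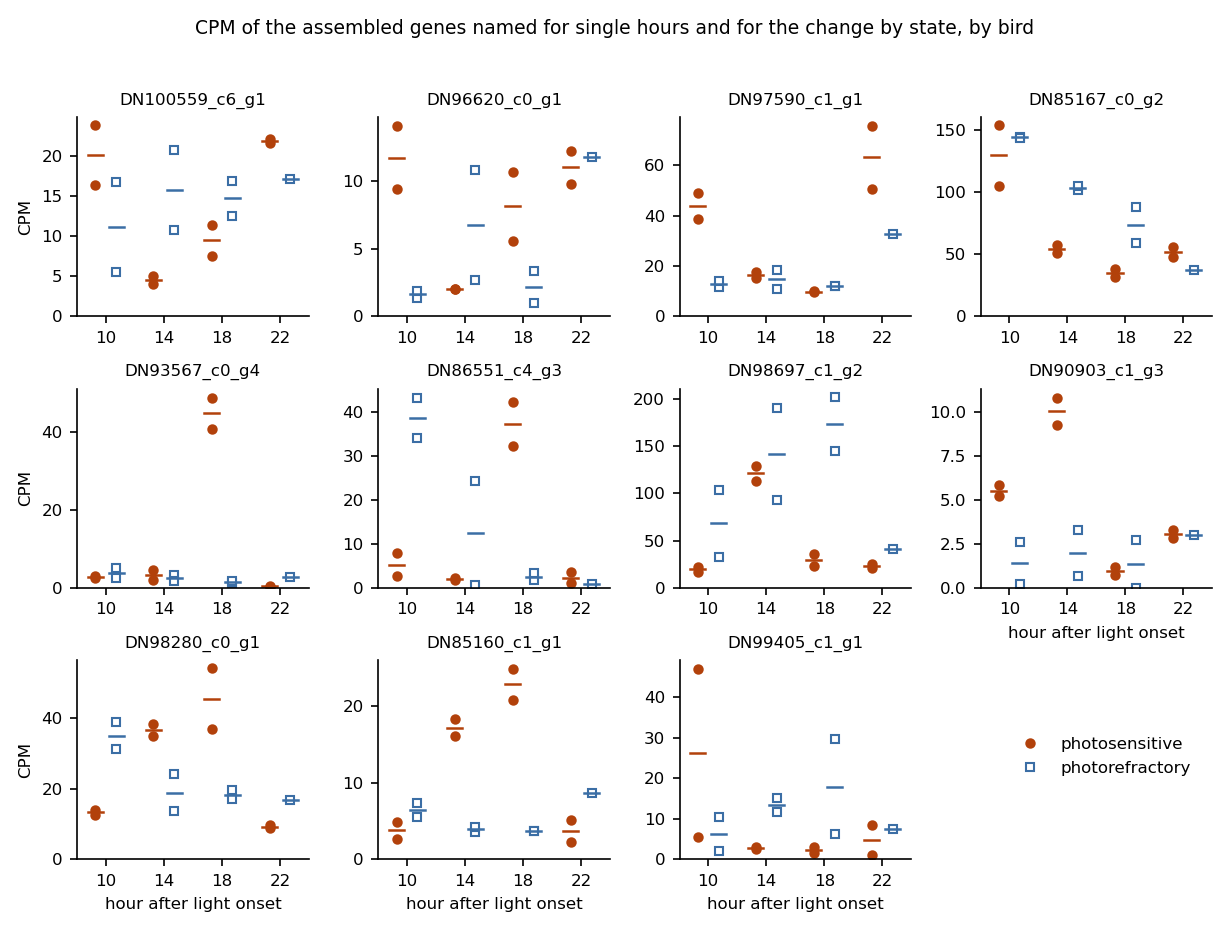
CPM (linear axes from 0) against the hour after light onset in each bird for the assembled genes named for single hours and for the change by state, none of which passed the test, with photosensitive birds as filled circles, photorefractory birds as open squares and group means as bars. TRINITY_DN93567_c0_g4 is at 40.9 and 48.8 CPM in the photosensitive birds of hour 18 and at or under 5.02 CPM in every other bird, and TRINITY_DN98280_c0_g1 moves in opposite directions in the 2 states.

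The change at hours 14 and 18 was next set out by the mean CPM of a gene over the same 6 libraries. Since 4 of these are the later birds, a gene that is higher later tends to a higher class. Low genes could also pass the minimum through the 2 birds of hour 10 alone. What these rules add to the order of the medians was not tested. Among the 11470 genes under 1 CPM the median log2 fold change of the pooled comparison was -0.32, and it was higher in each successive class, up to 0.29 among the 1928 genes of 100 CPM or more. Against hour 10 the medians were -0.26 under 1 CPM and 0.20 at 100 CPM or more at hour 14, and -0.52 and 0.36 at hour 18. The 4 later birds were all above hour 10 in 39.1% of the genes of 100 CPM or more and in 4.19% of those under 1 CPM, and all below it in 4.15% and 16.9%. In photorefractory birds the median was 0.06 over the 4294 of the 11470 genes under 1 CPM that could be tested there. At 100 CPM or more, where all 1928 could be tested, it was -0.03. The classes were set in photosensitive birds and the genes are not the same, so the orders of the 2 states are not on the same base.

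The difference between the medians of the most and the least abundant class was 0.61. It was 0.74 without bird 1 and 0.48 without bird 2 of hour 10, and 0.60 with each library thinned to the smallest total. Without bird 2 of hour 18 it was 0.42, the smallest value with 1 bird left out.

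Seen per library, the genes of 100 CPM or more held 47.1% and 47.4% of the counts at hour 14 and 48.0% and 51.5% at hour 18, against 46.3% and 42.6% at hour 10. The means were 48.5% ± 2.03 (SD, n = 4) at hours 14 and 18 and 44.4% ± 2.64 (SD, n = 2) at hour 10, which do not overlap. The exact permutation test over the 6 libraries gave p = 0.0667, 2-sided, which is the smallest value that 15 arrangements can give. This class was set by the mean of the same 6 libraries. The 100 most abundant genes of each single library held 11.3% and 11.4% of its counts at hour 14 and 11.9% and 13.1% at hour 18. At hour 10 they held 12.4% and 9.97%, so by that measure the groups overlapped. The share of the genes of 100 CPM or more was 40.6% and 40.2% in the photosensitive birds of hour 22. It was 44.3% to 50.01% in photorefractory birds of hours 10 to 18 and 41.0% in the photorefractory bird of hour 22.

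The number of assembled genes with a count of at least 5 went the other way. It was 43444 and 44699 at hour 14 and 42248 and 36325 at hour 18, against 52225 and 49059 at hour 10. The mean was 41679 ± 3707 (SD, n = 4) at hours 14 and 18 and 50642 ± 2239 (SD, n = 2) at hour 10, again without overlap (exact permutation test, p = 0.0667, 2-sided). Thinning every library to the same total left 40391 ± 2643 genes at hours 14 and 18 and 44996 ± 1657 at hour 10 (SD, n = 4 and 2), still without overlap. The difference of -8963 genes was -4605 at equal total counts, with 36436 genes in bird 2 of hour 18 as the lowest.

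The change also followed the length of the assembled gene, less steeply. The median log2 fold change of the pooled comparison was 0.16 for genes whose longest transcript was under 300 nt and -0.13 for those of 4000 nt or more. In photorefractory birds the medians ran the other way, at -0.08 and 0.13, over the 2840 of 3525 and 4637 of 4667 genes that could be tested there. The 4722 assembled genes of 4000 nt or more held 25.1% ± 1.48 (SD, n = 4) of the counts at hours 14 and 18 and 27.1% ± 1.45 (SD, n = 2) at hour 10, and the groups overlapped (exact permutation test, p = 0.267, 2-sided). RNA quality values were not used here, and the part of RNA integrity or library size in these orders was not tested.

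**Figure D4:**
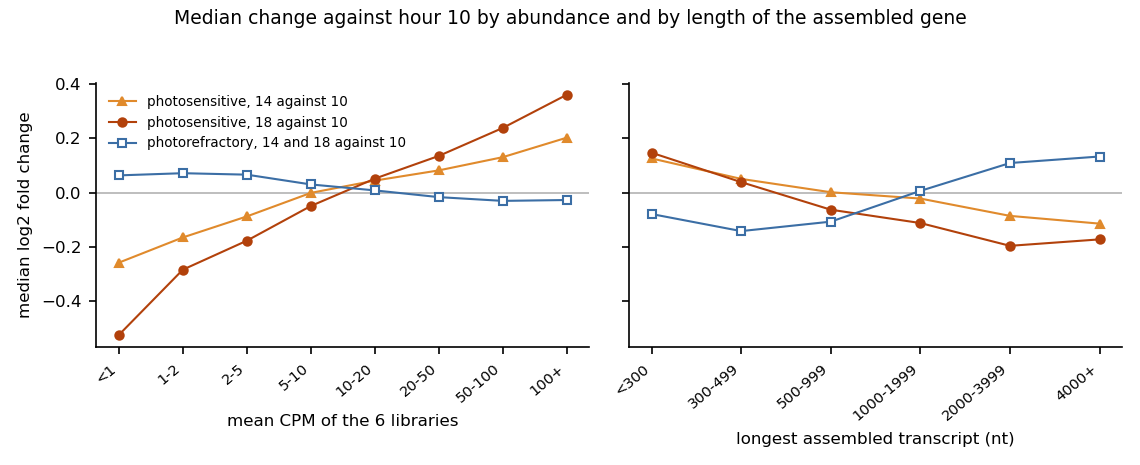
Median log2 fold change against hour 10 (vertical axis) by mean CPM of the 6 libraries (left) and by length of the longest assembled transcript in nt (right), for hour 14 (triangles) and hour 18 (filled circles) of photosensitive birds and hours 14 and 18 together of photorefractory birds (open squares). By abundance the photosensitive medians climb to 0.20 at hour 14 and 0.36 at hour 18, while the photorefractory medians stay between -0.03 and 0.07. The photorefractory medians cover only the genes that could also be tested in that state.

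Few of the 52138 genes tested were on in one group and off in the other. In 6 assembled genes both birds of hour 10 had 0 counts and each bird of hours 14 and 18 had at least 5, with group means of at most 4.29 CPM in the later birds. The reverse, at least 5 counts in both birds of hour 10 and 0 in all 4 later ones, held for 20 genes, with means of at most 4.80 CPM at hour 10. Of the 6, 4 had counts in the photosensitive birds of hour 22 and 5 in the photorefractory birds of hour 10. Of the 20, 14 had counts in the photosensitive birds of hour 22.

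With edgeR more genes were called for the shares of their transcripts than for their totals, by tests that are not the same. DESeq2, given above, called more genes for their totals than edgeR did for shares. The share of each transcript in the counts of its gene was tested for 15521 genes with 2 or more transcripts that passed the minimum, 82415 transcripts passing in all. In 119 genes (0.767%) the shares differed between hours 14 and 18 and hour 10 (edgeR diffSpliceDGE, adjusted p at or below 0.05), and 1573 (10.1%) had an unadjusted p under 0.05. The total of the gene differed by less than 2-fold in 108 of the 119. Of all 52138 genes tested for their totals, those with a single transcript included, 11876 differed by at least 2-fold. The share among the 15521 genes alone was not taken, so the 119 have no like set beside them. In 17 of the 119 the total had an unadjusted p under 0.05 in edgeR's test, beside 11% of all 52138 genes.

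In these 119 genes the transcript that moved most did so by a median of 40.1 percentage points (quartiles 21.4 and 66.9), against 14.3 points over all genes tested. Set against hour 10 the median was 40.1 points at hour 14 and 44.5 points at hour 18. The leading transcript of hours 14 and 18 was another than that of hour 10 in 61 of the 119 (51.3%), beside 27.0% of all genes tested. A transcript went between at least 80% and at most 20% of its gene in 19 of the 119 and in 39 of the 15521. These values come from the contrast that chose the genes and are a description.

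TRINITY_DN92438_c2_g1 differed in which of its long transcripts held the counts. Its transcript i6, of 2120 nt, held 85.2% and 85.2% of the gene's counts at hour 14 and 80.6% and 86.2% at hour 18, against 0.00141% and 0.00750% at hour 10. Its transcript i5, of 2125 nt, held 3.30% and 4.37% at hour 14 and 1.86% and 2.41% at hour 18, against 95.6% and 97.9% at hour 10. The totals of the gene were 89 and 67 counts at hour 14 and 56 and 35 at hour 18, against 90 and 114 at hour 10, and were not called (log2 fold change -0.35, unadjusted p = 0.3598 in edgeR's test). The change of shares had an adjusted p of 0.000707 in diffSpliceDGE.

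Transcript i6 of TRINITY_DN92438_c2_g1 held 87.4% and 93.3% in the photosensitive birds of hour 22. In photorefractory birds i6 held 85.0% and 91.5% at hour 14 and 78.8% and 81.4% at hour 18, against 0% and 92.3% at hour 10, and 82.5% at hour 22. The 1 photorefractory bird of hour 10 without i6 had 92.3% of i5, as had the photosensitive birds of hour 10. Transcript i5 thus led in 3 of the 15 birds, all of hour 10, and i6 in the other 12. The photorefractory birds of hour 18 had only 6 and 7 counts of this gene, and the other photorefractory birds 39 to 187.

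TRINITY_DN85470_c3_g1 spread its counts over more transcripts. Its transcript i1, of 3467 nt, held 33.0% and 24.7% at hour 14 and 38.0% and 67.5% at hour 18, against 1.99% and 1.52% at hour 10. Transcripts i9 and i10, of 3534 and 3530 nt, were at 0 in all 4 birds of hours 14 and 18. At hour 10, i9 held 20.3% and 46.8% and i10 held 32.7% and 10.9%. The shares differed with an adjusted p of 0.000622 in diffSpliceDGE, while the total, at 179 to 268 counts in the later birds, against 309 and 245 at hour 10, was not called (log2 fold change 0.16, unadjusted p = 0.543 in edgeR's test). In the birds of hour 22 and in photorefractory birds i9 was at or near 0 throughout, and i1 ranged from 0% to 70.6%.

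**Figure D5:**
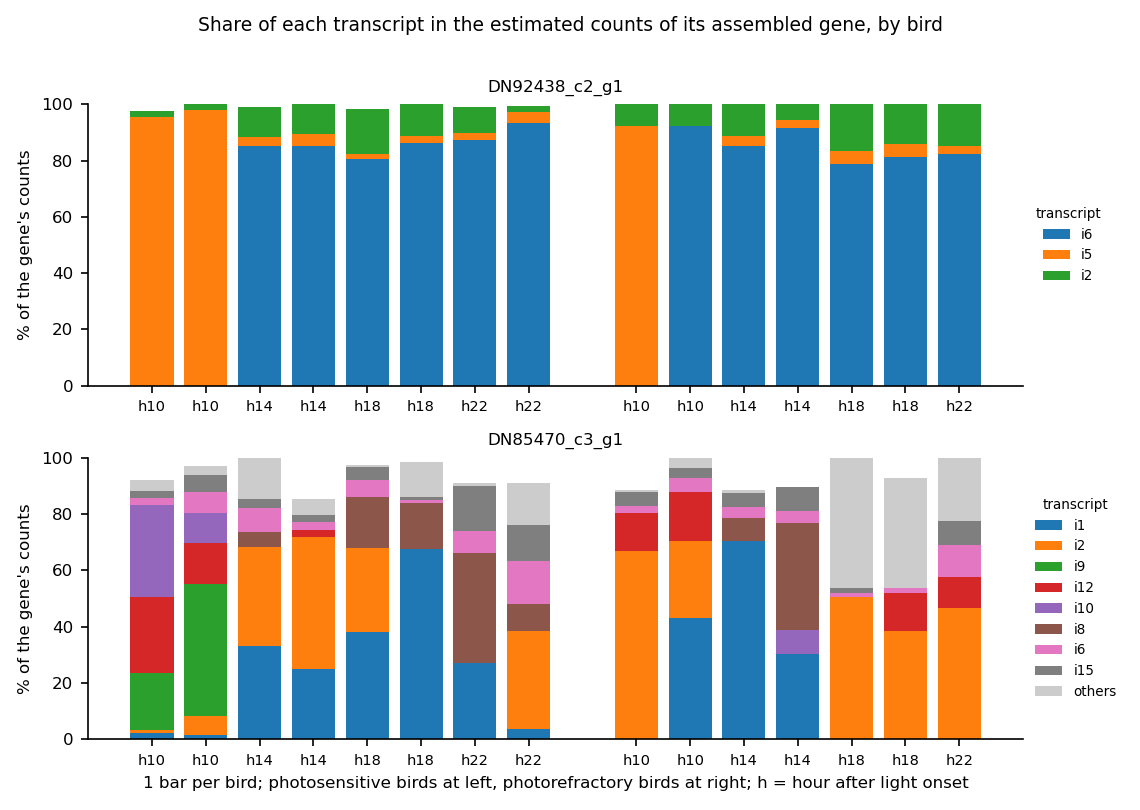
Share of each transcript (vertical axis, percent of the estimated counts of its assembled gene) in TRINITY_DN92438_c2_g1 and TRINITY_DN85470_c3_g1, with 1 bar per bird, photosensitive birds at left and photorefractory birds at right, each ordered by hour (h), and room above a bar for transcripts under the minimum. In the upper panel i5 fills 92.3% to 97.9% of 3 birds, all of hour 10, and i6 at least 78.8% of the other 12.

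The other 9 birds were read in the same way over more genes. For the 107 of the 119 genes whose transcript moved by at least 10 points, every other bird was placed on a scale with 0 at the mean share of hour 10 and 1 at that of hours 14 and 18. The median place was 0.756 and 0.727 in the photosensitive birds of hour 22 and 0.725 to 0.997 in the 7 photorefractory birds. Each of these 9 birds was nearer to hours 14 and 18 in 57.9% to 72.9% of the 107 genes, the photorefractory birds of hour 10 included (64.5% and 57.9%). Since 2 birds of hour 10 are set against 4 and the genes were chosen for the distance between them, a rare share in those 2 birds is favoured by the choice, and no test was made.

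In photorefractory birds hours 14 and 18 against hour 10 gave 14 genes with changed shares of 13331 tested (0.105%, edgeR diffSpliceDGE). Of the 119 genes, 93 could be tested there, 0 were called and 9 had an unadjusted p under 0.05, beside 8.95% of all genes tested.

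The calls on shares depended on single birds and on the settings. The 119 became 1 without bird 1 of hour 10 and 8 without bird 2 of hour 10, of which 0 and 1 were among the 119. They became 44 and 35 without bird 1 and bird 2 of hour 14, with 19 and 21 among the 119, and 41 without bird 1 of hour 18, with 22 among them, and 100 without bird 2 of hour 18, with 59 among them. Without either bird of hour 10 the adjusted p of TRINITY_DN92438_c2_g1 was 0.709 and 0.776 and that of TRINITY_DN85470_c3_g1 was 0.719 and 0.790 in diffSpliceDGE. With p-values combined over transcripts by Simes' method 12 of the 119 were called, and TRINITY_DN85470_c3_g1 was not (adjusted p = 0.0581). How counts are divided between similar transcripts is estimated by the pseudoaligner, and this uncertainty is not part of these p-values.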

How the data were processed

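Hypothalamic RNA of 15 birds was sequenced, 1 library each. The authors trimmed reads with Trimmomatic, assembled them with Trinity and quantified the 552023 transcripts with kallisto, and the deposited estimated counts (expected counts) and TPM are given per transcript with its length. The version of kallisto was not given in the sources used here. Counts were summed per assembled gene and rounded to whole numbers, and genes with at least 5 in 2 or more fitted libraries were kept. Totals were 4809916 to 7318462 counts in the 6 libraries, and counting floors of 3 counts cover counting error only. Deposited TPM entered only limma, as log2(TPM + 1) or log2(TPM + 0.1), on which scale the change of low genes is understated.

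Changes were tested with edgeR 4.0.16 (quasi-likelihood F-test, TMM, Benjamini-Hochberg adjustment over all genes tested, called at or below 0.05) in R 4.3.3. Shares of transcripts were tested with diffSpliceDGE, and single values with 2-sided exact permutation tests over libraries. The standard error is the log2 fold change over the root of F. Alternatives were DESeq2 1.42.0, limma 3.58.1, other scalings, minimums, thinning and libraries left out. Figures used matplotlib 3.10.9. The code was tested on simulated data.

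Per comparison at most 2 identifiers higher and 2 lower were named, with the smallest p among called genes without overlap or, where none was called, among genes without overlap and with a larger group mean of at least 10 CPM. For the change by state, overlap was judged in photosensitive birds only. The comparison, the gene sets and these rules were chosen with earlier results of these data known. Each library came from another bird, so the replicate numbers did not mark repeat samples of a bird.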

Additional observations from a re-analysis of the deposited data

How the results depend on the processing

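TRINITY_DN88976_c0_g1 kept its direction in all 17 alternatives of the pooled comparison and its call in 15. The number of genes called, 1 in edgeR's test, was 156 with DESeq2, 5 (1 higher, 4 lower) and 11 (2 higher, 9 lower) with limma on log2(TPM + 1) and log2(TPM + 0.1), 845 (359 higher, 486 lower) of 237447 with no minimum, and 0 with assembled transcripts or with all 15 libraries in 1 fit. With 1 library left out it was 1 to 6, being 1 (lower) without bird 1 of hour 10, 6 (2 higher, 4 lower) without bird 2 of hour 10 and 2 without bird 1 of hour 14. At hour 14 it was 10 with DESeq2, 303 (147 higher, 156 lower) with no minimum, 0 with either limma scale, a minimum of 10 or transcripts, and 0 to 5 with 1 library left out. At hour 18 it was 297 with DESeq2, 759 with no minimum, 2 with thinning, 0 with either limma scale, a minimum of 10, transcripts or the 4 libraries of the groups alone, and 0 to 12 with 1 library left out. Between hours 18 and 14 the 0 calls were 19 with DESeq2 and 166 with no minimum. For the change by state the 0 calls were 19 with DESeq2, 2 and 1 with the limma scales, 438 with no minimum, and 0 to 2 with 1 library left out. The 119 genes with changed shares were 12 with Simes' method and 1 to 100 with 1 library left out. For these differences the cause was not tested. The other scalings, the thinning and the libraries left out for the counts of genes without overlap, the medians by abundance and the shares of counts by class were chosen after seeing the data.

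Replicate numbers were shared between hours, but each library came from another bird. The correlation of same-numbered deviations was 0.02 (hours 10 and 14), -0.21 (10 and 18) and -0.08 (14 and 18). With 2 birds an hour these values cannot show whether birds of the same number had anything else in common. With the number as a block the pooled comparison called 1 gene, TRINITY_DN88976_c0_g1 (log2 fold change 5.26, adjusted p = 0.00242 in edgeR's test), hours 14 and 18 taken singly 1 each, hour 18 against hour 14 0, the change by state 0, and the shares of transcripts 5. With 2 birds at hour 10, single birds decide these counts, and a gene that was not called is not shown to be equal between the hours.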
